A study of Mus musculus with 16 samples.

Results

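Iron enters most cells bound to transferrin, is reduced inside the endosome, crosses into the cytosol, and is then passed to mitochondria for heme and iron-sulfur cluster synthesis, held in ferritin, or returned to the circulation. The genes described here cover that route. They were chosen by name, and all 9 were found among the 29453 genes of the count matrix: Tfrc (transferrin receptor), Steap3 (endosomal ferric reductase), Slc11a2 (divalent metal transporter of the endosome), Slc25a37 (mitoferrin 1, the mitochondrial iron importer of erythroid cells), Fth1 and Ftl1 (ferritin heavy and light chains), Slc40a1 (ferroportin, the iron exporter), Ireb2 (iron regulatory protein that binds mRNA when iron is low) and Hmox1 (inducible heme oxygenase, which breaks heme down and frees its iron). The cells came from chimeric mouse embryos made by injecting tdTomato-positive Stat3 null embryonic stem cells into wild-type (WT) CD1 blastocysts, collected at embryonic day (E) 7.5, E8.5 or E9.5 and sorted on tdTomato. The tdTomato-positive cells are the Stat3 null cells, from embryonic stem cells on a background crossed extensively to CD1 (how many lines were injected is not given in the sources used here), and the tdTomato-negative cells are the WT cells of the host, so that both genotypes of an embryo developed side by side. Embryos were pooled at E8.5 and at E7.5, where the study grouped them by size into large and small. The E7.5 libraries of a genotype may therefore differ in embryo size. The study's methods count fewer E9.5 embryos than there are E9.5 libraries of a genotype, so by that count some of those libraries share an embryo. The p-values and SDs at E9.5 therefore measure the spread between libraries and not between embryos.

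Each genotype had 2 libraries at each of the earlier stages and 4 at the latest, named A to D within a group, and the letter is only a name. Left out were 3395 cells called as doublets and 596 cells of the WT sort that held a unique molecular identifier (UMI) of tdTomato, and 37841 cells of 87 mapped cell types remained, with 360 to 4327 cells and 20682659 to 138613245 UMIs per library. Stat3 lay at 1.16 to 2.53 UMIs per 1000000 (CPM) in the 8 null libraries and at 6.14 to 9.31 CPM in the 8 WT libraries, and the null allele replaces internal exons, so some 3′ tags may remain. The source of the Stat3 UMIs in the null libraries was not tested. E9.5 WT C and E9.5 WT D shared 292 cell barcodes, which is 15.3% of the cells of C and 7.39% of those of D, while no other pair of libraries shared more than 8. Of the barcodes shared by C and D, 10 had the same mapped cell type in both. Erythroid cells carried all 7 erythroid markers examined, among them Gata1, Klf1 and the embryonic globins, and the 7 myeloid markers summed to at most 1.61 CPM in any Erythroid library of E8.5 or E9.5 with enough cells to test. All levels below are CPM, the UMIs of a gene per 1000000 UMIs of that cell type in that library, with hemoglobin included in the total, and cell types with more than 15 cells in a library were used.

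When iron is scarce, iron regulatory proteins bind a short hairpin in the untranslated region (UTR) of some of these mRNAs. A hairpin in the 3′ UTR protects the transferrin receptor mRNA from decay, and a hairpin in the 5′ UTR blocks translation of the ferritin and ferroportin mRNAs, which leaves their mRNA level largely apart from their protein level. A UMI count reads the mRNA only, so the elements are shown here for the members in which this search found them. The 17-base core searched on the transcript strand was an unpaired C, 5 bases, the loop CAGTGN, and 5 bases able to pair with the first 5, with G-T pairs allowed. It was found in a UTR of 160 of 21877 protein-coding genes (0.731%) of the GRCm38 annotation and in 4 of the 9 members, and only 1 gene, Tfrc, held 3 or more distinct matches. Each line below gives 29 bases of the mRNA strand with the 6-base loop in capitals.
Tfrc 3′ UTR, chr16:32631219-32631247, plus strand: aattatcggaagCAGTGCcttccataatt
Tfrc 3′ UTR, chr16:32631598-32631626, plus strand: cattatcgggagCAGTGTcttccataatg
Tfrc 3′ UTR, chr16:32631663-32631691, plus strand: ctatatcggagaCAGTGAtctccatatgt
Tfrc 3′ UTR, chr16:32631710-32631738, plus strand: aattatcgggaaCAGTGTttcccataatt
Fth1 5′ UTR, chr19:9982732-9982760, plus strand: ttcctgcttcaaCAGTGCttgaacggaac
Ftl1 5′ UTR, chr7:45459779-45459807, minus strand: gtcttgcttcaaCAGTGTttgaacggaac
Slc40a1 5′ UTR, chr1:45925465-45925493, minus strand: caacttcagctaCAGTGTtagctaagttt
The 5 members without a match in this search were Slc11a2, Slc25a37, Steap3, Ireb2 and Hmox1. Slc11a2 is known to carry an element in some of its transcripts, which this strict form of the motif did not find. A match is a description of the letters and not evidence of binding.

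Among the WT host cells the genes of iron uptake, mitochondrial import and storage stood highest in Erythroid cells, the primitive red cells of the yolk sac and early circulation, while the exporter, the regulator and the heme oxygenase did not. Erythroid cells were compared with 35 other cell types at E8.5 and 39 at E9.5. Every WT Erythroid library lay above every library of every other type for Tfrc, Slc25a37, Fth1 and Steap3 at both stages, and for Slc11a2 and Ftl1 at E8.5 only. These orders are given as a description, since the types of a library share its embryos and its depth.

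**Figure D1:**
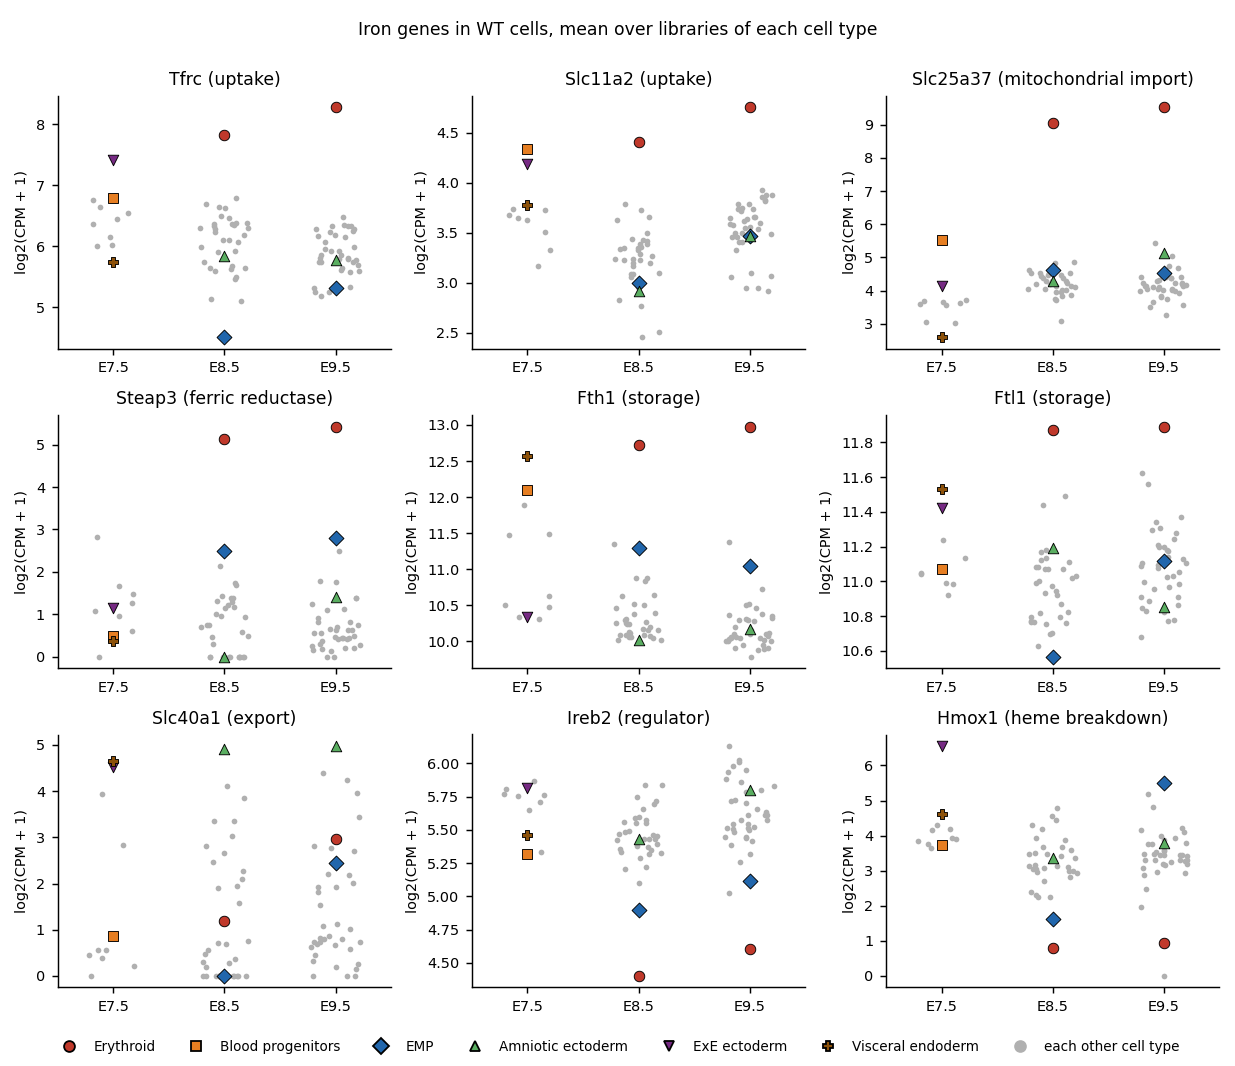
Mean level of each of the 9 genes in WT cells on a log2(CPM + 1) scale, 1 point per mapped cell type, with 1 panel per gene and the stages along the x axis. Erythroid cells (red circles) are the highest type for the 6 genes of uptake, mitochondrial import and storage at E8.5 and E9.5, and they lie low for Ireb2 and Hmox1.

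Slc25a37, which supplies the iron that ferrochelatase inserts into heme, stood furthest above the next type. It lay at 582 and 469 CPM in Erythroid cells of E8.5 WT A and B, and at 779, 653, 791 and 714 CPM in E9.5 WT A to D. The median of the other types was 17.7 CPM at E8.5 and 16.8 CPM at E9.5, so the Erythroid mean was 29.7 and 43.8 times that median. The next type by mean held 27.8 ± 1.48 CPM at E8.5 (Pharyngeal endoderm, SD, n = 2) and 42.6 ± 30.9 CPM at E9.5 (Thyroid primordium, n = 3). Across 36 WT cell types at E8.5 the genes whose pattern lay closest to that of Slc25a37 among 9520 genes were the globin genes Hba-x (Pearson r = 0.919, a description over types that share libraries), Hba-a1 (0.917) and Hbb-y (0.914). Without Erythroid cells these values were 0.0313, 0.0394 and -0.0741, so the likeness rested on that 1 type.

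Tfrc, through which transferrin-bound iron enters, was expressed in every type. Its Erythroid level was 226 and 225 CPM in the E8.5 WT libraries and 249.8, 299.7, 377 and 308 CPM in E9.5 WT A to D. The other types had a median of 68.0 CPM at E8.5 and 55.2 CPM at E9.5, with Foregut the next at E8.5 (109.5 ± 44.9 CPM, n = 2) and Spinal cord progenitors at E9.5 (88.6 ± 19.8 CPM, n = 3). At the low end stood EMP cells, the erythro-myeloid progenitors, with 21.8 ± 8.82 CPM at E8.5 (n = 2) and 39.0 ± 4.47 CPM at E9.5 (n = 4). The genes most like Tfrc across the 36 types were Smox (0.768), Prdx2 (0.762) and Grtp1 (0.695), and these held values of 0.662, 0.661 and 0.612 without Erythroid cells.

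Steap3, whose product reduces the iron that transferrin releases, was low outside Erythroid cells. It lay at 34.4 and 33.5 CPM in the E8.5 WT libraries and between 37.1 and 52.8 CPM in those of E9.5, against a median of 0.611 and 0.483 CPM in the other types. The second type at both stages was EMP, with 4.63 ± 0.669 CPM at E8.5 and 5.92 ± 2.46 CPM at E9.5. Slc11a2, which carries the reduced iron out of the endosome, was expressed broadly and differed less between types. Its Erythroid mean was 20.3 CPM at E8.5 and 26.0 ± 3.64 CPM at E9.5, about 2.39 and 2.38 times the median of the other types. At E9.5 its libraries overlapped those of Midbrain/Hindbrain boundary cells (14.2 ± 7.90, n = 3).

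The ferritin genes were abundant in every type. Fth1, the chain that oxidizes iron for storage, held 7004 and 6520.3 CPM in Erythroid cells of E8.5 WT A and B, and 8306, 9236, 7173 and 7525 CPM in those of E9.5 WT A to D. The median of the other types was 1206 CPM at E8.5 and 1095 CPM at E9.5. Venous endothelium came next at E8.5 (2618 ± 498, n = 2) and Megakaryocyte progenitors at E9.5 (2657 ± 80.5, n = 2). Ftl1, the chain that helps mineralize the core, had a narrower range: its Erythroid mean of 3746 ± 377 CPM at E8.5 and 3796 ± 631 CPM at E9.5 was 1.87 and 1.74 times the median of the other types. Both ferritin genes have processed pseudogenes, and how shared reads were split is not given in the sources used here.

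The exporter Slc40a1 was highest outside the blood. Amniotic ectoderm held 29.3 ± 15.1 CPM at E8.5 and 30.5 ± 11.5 CPM at E9.5 (n = 2 each), and was followed at E9.5 by Allantois (20.04 ± 4.17, n = 3), the stalk that joins the embryo to the placenta, and YS mesothelium (17.8 ± 5.39, n = 3). At E7.5 the leading types were Visceral endoderm (23.98 ± 6.50) and ExE ectoderm (21.95 ± 1.16, n = 2 each). Each of these neighbors in the order differed by less than the spread of their libraries. Erythroid cells held 1.28 CPM of Slc40a1 at E8.5, rank 15 of 36 types, and 6.77 ± 2.98 CPM at E9.5, rank 6 of 40. These were 2.70 and 6.58 times the medians of the other types, which were 0.472 and 1.03 CPM. The genes most like Slc40a1 were Serpinb6a (0.877), Krt19 (0.876) and Cobll1 (0.868).

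Ireb2 and Hmox1 ran the other way. Ireb2 was lowest of all types in Erythroid cells at both stages, with 20.1 ± 1.25 CPM at E8.5 and 23.4 ± 1.19 CPM at E9.5 against medians of 42.2 and 47.8 CPM elsewhere. At E9.5 its libraries overlapped those of Megakaryocyte progenitors (31.5 ± 16.4, n = 2). At E7.5 its lowest mean was in Blood progenitors (39.0 ± 0.215), with Gut tube beside them (39.3 ± 3.64) and their libraries overlapping. Hmox1 was at 0.753 ± 0.319 CPM in Erythroid cells at E8.5, from 10 and 16 UMIs, and at 0.927 ± 0.551 CPM at E9.5, from 1 to 4 UMIs per library. The other types had medians of 7.87 and 9.92 CPM. Hmox1 led in ExE ectoderm at E7.5 (93.0 ± 13.4), the placental precursor, in Venous endothelium at E8.5 (26.4 ± 0.343), and in EMP at E9.5, where the mean of 44.6 ± 53.4 CPM rested on E9.5 WT C: the libraries held 25.7, 18.1, 124 and 10.4 CPM, and 1 cell of WT C held 92 of its 168 Hmox1 UMIs. EMP cells also carried myeloid markers, 876 to 1922 CPM summed over the 7 markers in the E9.5 WT libraries.

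At E7.5 the WT libraries held 5 Erythroid cells, too few to use, and Blood progenitors were the highest of 11 WT types for Slc25a37 (45.0 ± 13.3 CPM, where the median of the 11 types was 11.2) and Slc11a2 (19.3 ± 1.21), and the next to highest for Tfrc (109 ± 0.754, below ExE ectoderm at 169 ± 20.5) and Fth1 (4395 ± 50.7, below Visceral endoderm at 6088 ± 982). Their libraries overlapped those of ExE ectoderm (17.3 ± 2.12) and Visceral endoderm (12.8 ± 8.90) for Slc11a2, and of Non-neural ectoderm (107.5 ± 4.38) for Tfrc.

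The first comparison asked how these genes moved between stages in the WT host cells. Between E8.5 and E9.5, Erythroid cells held more of the exporter mRNA and of the mitochondrial importer mRNA. Counts were tested with edgeR's quasi-likelihood test in each cell type, with Benjamini-Hochberg adjustment over all genes of the type. Hemoglobin UMIs were left out of the library sizes, because their share of Erythroid UMIs went from 22.7% and 13.8% in the E8.5 WT libraries to between 31.4% and 35.1% in those of E9.5. Slc40a1 rose from 1.27 and 1.28 CPM to 9.96, 8.17, 3.05 and 5.91 CPM in E9.5 WT A to D, with no overlap, and all libraries of E9.5 lay above those of E8.5 for 9.27% of the Erythroid genes tested (37.6% did not overlap in either direction). Its log2 fold change was 2.68 (SE 0.38, edgeR adjusted p = 2.3e-04), from 45 UMIs at E8.5 and 85 at E9.5. Slc25a37 rose by 0.67 on the log2 scale (SE 0.14, adjusted p = 0.0061 by edgeR). The log2 fold change was 0.39 without E8.5 WT B, and 0.98 when E8.5 WT A was left out instead. Among cells mapped to the atlas stages E9.25 and E9.5 it was 0.38, where E8.5 WT A held 287 cells and E8.5 WT B 16, so that mapped age and library cannot be told apart. These were the 2 members that stayed past an adjusted p of 0.05 in Erythroid cells under every alternative run.

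Tfrc (log2 fold change 0.64, SE 0.15, edgeR adjusted p = 0.011), Steap3 (0.54, SE 0.15, 0.019), Slc11a2 (0.53, SE 0.16, 0.028), Fth1 (0.45, SE 0.13, 0.040) and Ireb2 (0.42, SE 0.14, 0.04996) also passed an adjusted p of 0.05, so that 7 of the 8 members tested in Erythroid cells were higher at E9.5. Over all genes of Erythroid cells, 10% passed in that direction. Ftl1 differed by 0.21 on the log2 scale (SE 0.21, adjusted p = 0.53 by edgeR), and Hmox1 had too few counts to be tested. With library sizes over all UMIs, hemoglobin included, the median log2 fold change of all Erythroid genes went from 0.05 to -0.16 and the share of higher genes among those past the threshold from 49.6% to 21.8%. Under that scaling, added after the data were seen, Slc40a1 (2.48), Slc25a37 (0.48) and Tfrc (0.45) were past the threshold, and Steap3, Slc11a2, Fth1 and Ireb2 were not. The latter 4 and Tfrc also missed it among Erythroid cells mapped to the atlas stages E9.25 and E9.5 alone, where Tfrc had a log2 fold change of 0.36 (edgeR adjusted p = 0.16), and without E8.5 WT B, where Tfrc had 0.49 (edgeR adjusted p = 0.081). Fth1 and Ireb2 also missed it with DESeq2 size factors (edgeR adjusted p = 0.053 and 0.061), and Slc11a2, Steap3 and Ireb2 with the DESeq2 test, at log2 fold changes of 0.51, 0.51 and 0.40. Without E9.5 WT A, Steap3, Slc11a2, Fth1 and Ireb2 missed it (edgeR adjusted p from 0.095 to 0.14), as did Ireb2 without any other single library of the comparison, Slc11a2 without WT C and Fth1 without WT D or without the barcodes shared by C and D. Ireb2 also missed it without those barcodes (edgeR adjusted p = 0.12) and with no filter on low counts (0.13). The log2 fold change of Fth1 went to 0.26 without E8.5 WT B, and to 0.15 among Erythroid cells mapped to atlas stages E9.25 and E9.5.

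**Figure D2:**
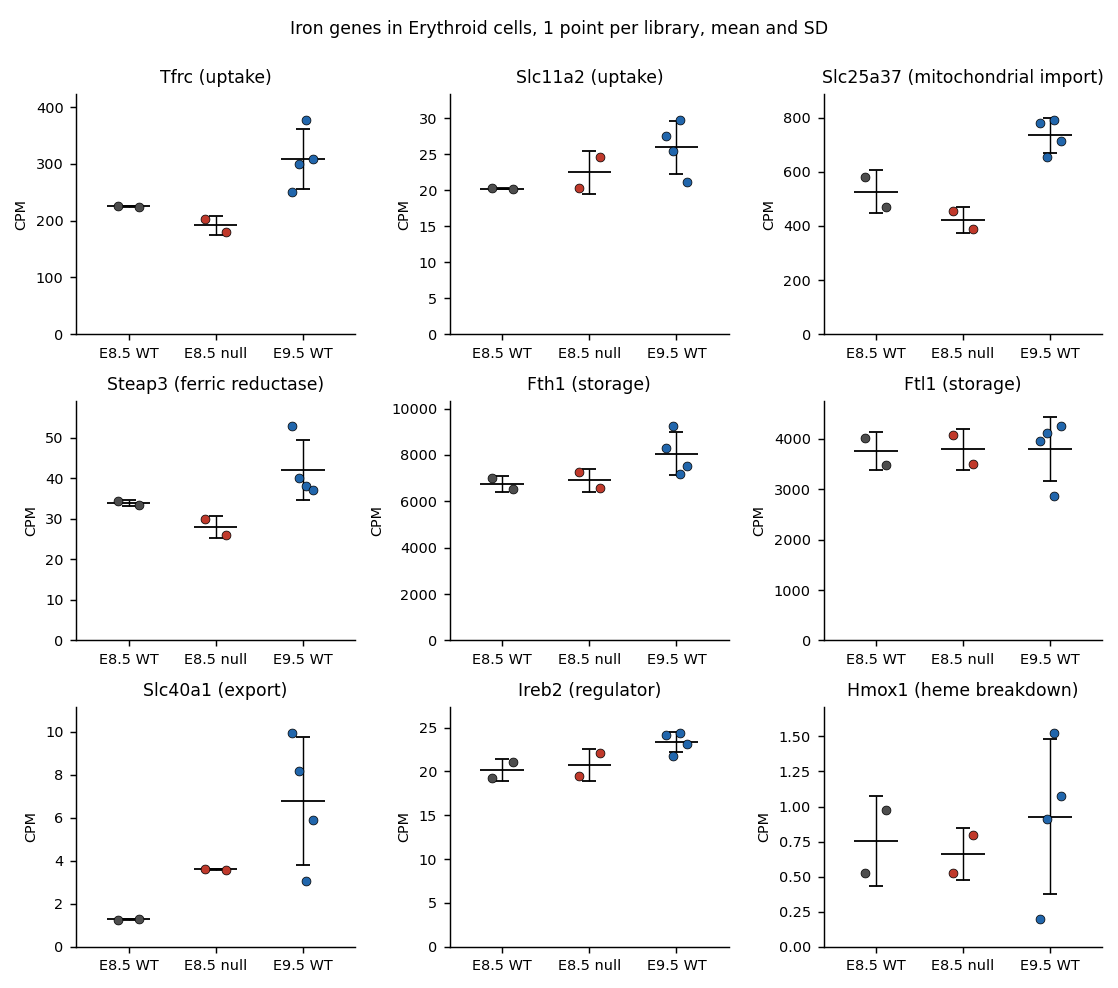
CPM of the 9 genes in Erythroid cells, 1 point per library, with the mean and SD of each group, for 2 E8.5 WT, 2 E8.5 null and 4 E9.5 WT libraries. Slc40a1 is higher in both E8.5 null libraries than in both E8.5 WT libraries, and all 4 E9.5 WT libraries lie above both E8.5 WT libraries for Slc25a37 and Tfrc.

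Within the E8.5 WT libraries levels were also read by the mapped age of the Erythroid cells. In E8.5 WT B, Slc25a37 was at 287 CPM in the 134 cells mapped to atlas stages up to E8.25, 487 CPM in the 363 cells mapped to E8.5, 594 CPM in the 109 cells mapped to E8.75 and E9.0 and 587 CPM in the 16 cells mapped to E9.25 and E9.5. Tfrc took values of 174, 213, 307 and 292 CPM, and Fth1 of 5915, 6540.4, 6880.5 and 8305 CPM, in the same order. The hemoglobin share of these cells ran from 6.38% to 21.98%. E8.5 WT A held 287 of its 426 Erythroid cells in the oldest of these bins. From the E8.5 bin on, Slc25a37 was at 428, 606 and 626 CPM there, Tfrc at 175, 249 and 238 CPM, and Fth1 at 6778, 7075 and 7088 CPM. In both libraries Slc25a37 and Tfrc were lower at mapped stage E8.5 than in the older bins. Cells were mapped on variable genes of the atlas, which may include these genes, so the order across bins is a description.

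Outside the Erythroid cells the ferritin heavy chain was mostly lower at E9.5. Fth1 had a negative log2 fold change between E8.5 and E9.5 in 26 of 30 other types and was past an adjusted p of 0.05 in 14 of them, all lower, with Mesenchyme (from 1888 ± 197 to 1254 ± 130 CPM, log2 fold change -0.71, SE 0.09, edgeR adjusted p = 6.3e-05) the type of the largest fold change. Ventral hindbrain progenitors had the smallest adjusted p (-0.43, SE 0.07, edgeR adjusted p = 4.2e-05). Of all tests in types other than Erythroid, 5% were lower at that threshold. With library sizes over all UMIs the median log2 fold change of all genes in these types moved from 0.01 to 0.15, the share of higher genes among those past the threshold from 46.2% to 78.8%, and Fth1 was past it in 7 types, all lower. Fth1 had also fallen between E7.5 and E8.5 in the 2 types that could be tested, Mesenchyme (-0.56, SE 0.12, edgeR adjusted p = 0.0041) and Lateral plate mesoderm (-0.52, SE 0.11, 0.010). Tfrc fell in 5 other types (2 under that scaling), and by most in Thyroid primordium (from 97.5 ± 4.53 to 39.0 ± 9.95 CPM, log2 fold change -1.42, SE 0.28, edgeR adjusted p = 0.0047), a call that the DESeq2 test did not make (-1.42, adjusted p = 0.089). Ftl1 fell in 2 other types by the first scaling and rose in 2 by the other, so it has no direction here. Hmox1 fell in Migratory neural crest (-0.92, SE 0.21, edgeR adjusted p = 0.0058) and Mesenchyme (-0.80, SE 0.26, 0.044), of which Mesenchyme missed the threshold with library sizes over all UMIs (-0.68, edgeR adjusted p = 0.085). In Dorsal spinal cord progenitors Slc25a37 fell (-0.68, edgeR adjusted p = 0.013), and Ireb2 rose (0.38, edgeR adjusted p = 0.045). Both passed under the other scaling too.

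Over 31 types, 32 of 211 tests of members between E8.5 and E9.5 passed an adjusted p of 0.05, against 9.64% of all tests, and 2 of them (Slc40a1 in Erythroid cells and Tfrc in Thyroid primordium) also had an absolute log2 fold change over 1, against 3.19% of all tests. Between E7.5 and E8.5, 3 of 14 tests passed an adjusted p of 0.05, against 19.5% of all tests, the third being Ftl1 in Mesenchyme (0.33, SE 0.09, edgeR adjusted p = 0.019), and 0 had an absolute log2 fold change over 1, against 8.55%.

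**Figure D3:**
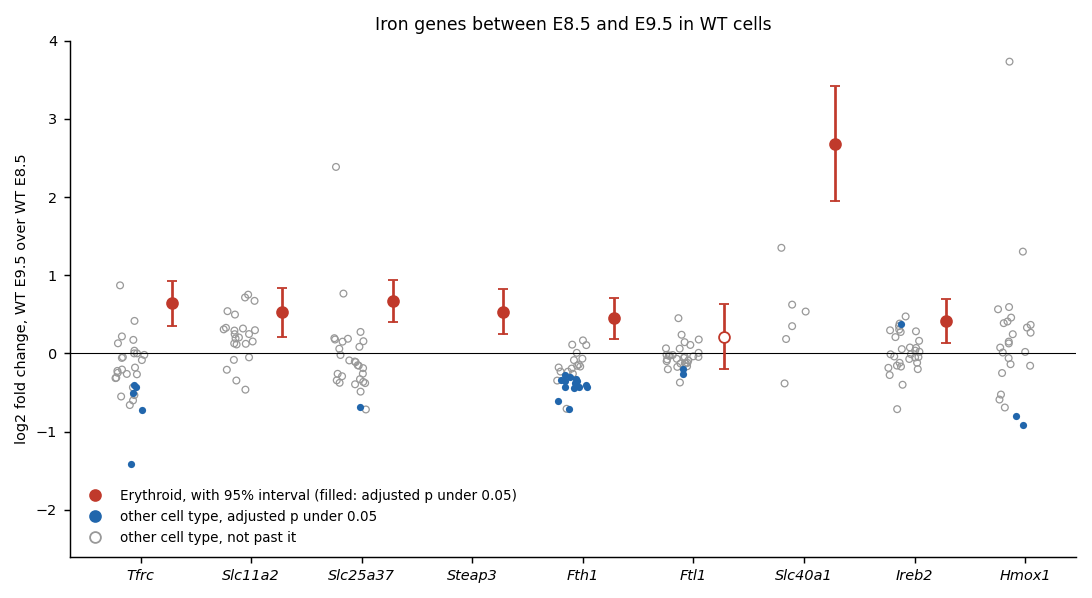
Log2 fold change of each gene in WT cells, E9.5 over E8.5, by cell type. Red circles are Erythroid cells with 95% intervals (filled where past an adjusted p of 0.05), blue points are other types past an adjusted p of 0.05, and open circles are types that did not pass it. Fth1 is above 0 in Erythroid cells and below 0 in 26 of 30 other types.

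The second comparison was the genotype: null against WT cells of the same stage and type. The null cells descend from cultured stem cells and the WT cells from host blastocysts, and these origins and the Stat3 genotype cannot be told apart. No member was called at any stage. With a call set at an adjusted p under 0.05 and an absolute log2 fold change over 1, edgeR called 0 of 49 member tests in 7 types at E7.5 (0.186% of all tests were called), 0 of 139 in 20 types at E8.5 (0.0609%) and 0 of 253 in 37 types at E9.5 (0.12%), and 0 passed the adjusted p alone. Unadjusted p-values under 0.05 numbered 3, 3 and 16 among the members, against 4.06%, 4.32% and 6.26% of all tests, and DESeq2 also called 0. At E9.5 the members' share was thus near that of all genes. Steap3 was too low to be tested at E7.5 and E9.5, and Slc40a1 at E7.5.

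In Erythroid cells at E8.5 the member furthest from WT was the exporter. Slc40a1 lay at 3.62 and 3.58 CPM in the null libraries, from 89 and 18 UMIs, and at 1.27 and 1.28 CPM in the WT libraries, from 24 and 21 UMIs. The groups did not overlap, as for 26.8% of all Erythroid genes tested, and the log2 fold change was 1.47 (SE 0.33, edgeR unadjusted p = 0.0024, adjusted p = 0.21). In all, 9 of 10143 genes (0.0887%) were called in these cells, and 166 with library sizes over all UMIs, where past an adjusted p of 0.05 alone 55 genes were higher and 138 lower in null cells, against 2 and 8. No member was called under either scaling. With no filter on low counts the adjusted p was 0.028, and under the other alternatives for this value it lay between 0.093 and 0.53. Among Erythroid cells mapped to atlas stage E8.5 alone, Slc40a1 was at 3.14 and 2.89 CPM in the null libraries and 1.84 and 1.15 CPM in the WT libraries. The same gene was tested in 5 other types at E8.5, where it had a log2 fold change under 0 in 4. The null effect in Erythroid cells minus that in all other cells of the same libraries was 1.07 for Slc40a1 (SE 0.41, edgeR unadjusted p = 0.021, adjusted p = 0.44). Those other cells were summed over types, so the cell type makeup of each library enters this value and others of the same test.

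Tfrc, Steap3 and Slc25a37 had lower values in the null than in the WT Erythroid cells of E8.5, and none passed the test. Tfrc was at 204 and 179 CPM in the null and 226 and 225 CPM in the WT libraries (log2 fold change -0.28, 95% interval -0.59 to 0.04, edgeR adjusted p = 0.75). Slc25a37 was at 456 and 388 CPM against 582 and 469 CPM (-0.37, interval -0.84 to 0.09, adjusted p = 0.80 by edgeR). Steap3 was at 29.9 and 26.0 CPM against 34.4 and 33.5 CPM (-0.30, interval -0.65 to 0.05, adjusted p = 0.75 by edgeR). In all 3 the null libraries lay below both WT libraries. With 2 libraries against 2, 13.5% of all Erythroid genes tested were lower without overlap and 13.3% higher. Among cells mapped to atlas stage E8.5 alone, Tfrc was at 189 and 174 CPM in the null and 175 and 213 CPM in the WT libraries, which overlapped, and its log2 fold change went to -0.08. In the same cells Slc25a37 had -0.25 (edgeR adjusted p = 0.18) and Steap3 -0.15 (edgeR adjusted p = 0.77). Slc25a37 was at 352 and 423 CPM in the null and 428 and 487 CPM in the WT libraries. Steap3 was at 32.2 and 28.5 against 37.2 and 33.3 CPM. Neither overlapped there, and the share of all genes without overlap in these cells is not given here. When 1 library was left out the log2 fold change of Slc25a37 ran from -0.64 without E8.5 WT B to -0.04 without E8.5 WT A, that of Tfrc from -0.50 without E8.5 null A to -0.10 without E8.5 null B, and that of Steap3 from -0.55 without E8.5 null A to -0.13 without E8.5 WT A. Hemoglobin was 20.3% and 10.1% of the UMIs of the null cells against 22.7% and 13.8%, in the order of the libraries. The ferritins, Ireb2 and Slc11a2 had intervals that spanned 0 with absolute log2 fold changes under 0.1. Slc11a2 was the uptake gene with the higher mean in null cells, 22.5 ± 3.05 against 20.3 CPM (0.08), also with no overlap. Hmox1 differed by -0.31 on the log2 scale, with few UMIs behind it (SE 0.55, adjusted p = 0.96 by edgeR). The interaction with other cells gave -0.40 for Tfrc (SE 0.18, edgeR adjusted p = 0.59), and 49 of 13263 genes but 0 members passed it.

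At E9.5 the null libraries held 19 Erythroid cells in all, 9, 2, 2 and 6 in null A to D, against 380 in the WT libraries, so no test was made. The sum over null A stood apart from the WT libraries: Fth1 was at 24800.4 CPM against 7173 to 9236 CPM in the WT libraries, Ftl1 at 11277 against 2866 to 4245 CPM, and Hmox1 at 179 against 0.199 to 1.53 CPM. Steap3 was at 5.59 CPM there, from 1 UMI. In null A, 3 of the 9 cells held 3 or more Hmox1 UMIs (19, 8 and 5). No cell held more than 2 among the 1048 Erythroid cells of E8.5 WT and the 725 of E8.5 null, nor more than 1 among the 380 of E9.5 WT. Fth1 made up more than 2% of the UMIs of 3 cells of null A, up to 6.87%, of 2 WT cells (both in E9.5 WT B) and of 3 E8.5 null cells (all in null A). The 4 cells of null A past either limit held 1 Tfrc UMI, 3 Slc25a37 UMIs and 7 Slc40a1 UMIs in total, with a hemoglobin share from 23.5% to 34.3%, and none held a UMI of the 7 myeloid markers. These limits were set after the values of null A were seen, so the counts of cells are a description. The 2, 2 and 6 Erythroid cells of null B, C and D held 0 Slc40a1 UMIs and 1 Hmox1 UMI. Null B, C and D did not share the high Fth1 of null A. Their median Fth1 share per cell was 0.64%, 0.341% and 0.486% of UMIs, against 0.882% in null A and 0.666% to 0.758% in the E9.5 WT libraries.

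In the progenitors no member passed the test. E7.5 Blood progenitors held Fth1 at 5332 ± 344 CPM in the null and 4395 ± 50.7 CPM in the WT libraries (2 libraries each, 0.32 on the log2 scale, SE 0.08, adjusted p = 0.14 by edgeR), and Tfrc at 137 ± 4.65 against 109 ± 0.754 CPM (0.36, SE 0.13, edgeR adjusted p = 0.61). Neither gene's libraries overlapped, which in the direction of higher null values held for 4 of the 7 members and for 12.7% of all genes tested in these cells (34.2% in either direction). E9.5 EMP cells held Tfrc at 50.6 ± 1.92 CPM in 2 null and 39.0 ± 4.47 CPM in 4 WT libraries (0.38, SE 0.17, edgeR adjusted p = 0.62), while Slc40a1 had a 95% interval from -0.93 to 2.80 on the log2 scale.

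At E9.5 no member had an adjusted p under 0.05 in any cell type. The direction of the log2 fold change was counted over types. Slc25a37 had a negative log2 fold change in 29 of 35 types (median -0.28), and all 7 of its unadjusted p-values under 0.05 were lower in the null cells. Its smallest adjusted p was 0.36 by edgeR. Hmox1 had a positive one in 29 of 33 types (median 0.30, smallest adjusted p = 0.33 by edgeR). Fth1 was positive in 31 of 37 types with a median of 0.05, Slc11a2 in 21 of 29 (median 0.17) and Slc40a1 in 6 of 8 (median 0.37). Tfrc was positive in 19 and Ftl1 and Ireb2 in 20 of 37 types each. The counts at the earlier stages were not the same. At E8.5 Slc25a37 was positive in 9 of 19 types and Hmox1 in 10 of 17, Fth1 in 18 of 20 (median 0.11), Ftl1 in 17 of 20 (median 0.08) and Slc11a2 in 12 of 16. At E7.5 Ftl1 was positive in 7 of 7 types (median 0.08) and Fth1 in 4, and with library sizes over all UMIs these were 4 and 2. A difference between stages was tested on the averages given next. The median over all genes and types was -0.0010 at E9.5, where 161464 of 324583 log2 fold changes were positive. How many single genes leaned as far as a member is not given here. The types of a library are not independent, so the counts over types carry no test.

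**Figure D4:**
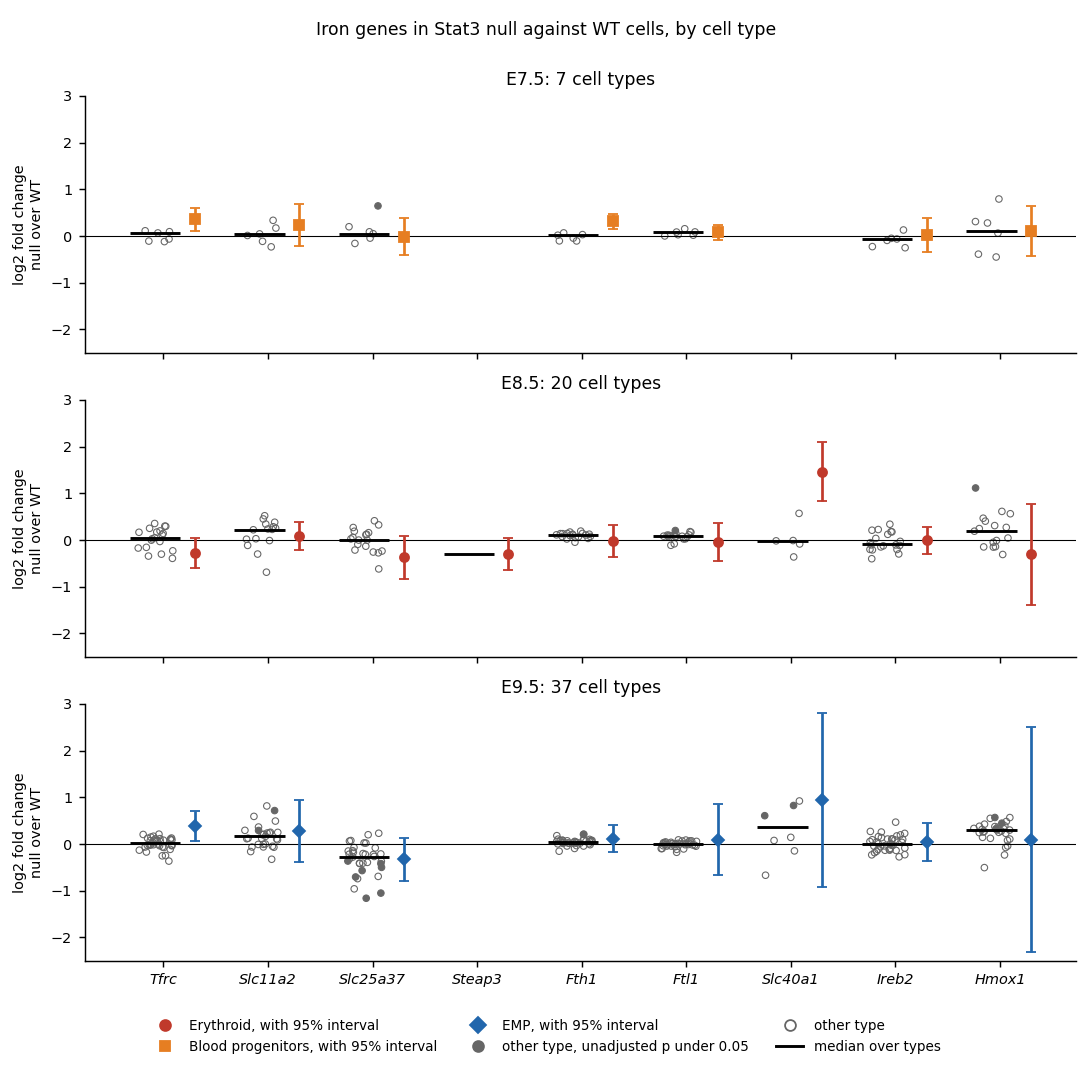
Log2 fold change of each gene, null over WT, by cell type at E7.5 (7 types), E8.5 (20 types) and E9.5 (37 types), with the median over types as a bar and 95% intervals for Erythroid, Blood progenitors and EMP cells. Filled gray points have an unadjusted p under 0.05, and no point passed the adjusted threshold.

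To give each library 1 value, log2(CPM + 5) was averaged over the cell types present in every library of a stage and fitted with limma over all 16 libraries. Of 8 members that passed a mean of 1 CPM, 0 were past an adjusted p of 0.05, against 4.24% of 11605 genes, and their 95% intervals lay between -0.21 and 0.23 on the log2 scale. Hmox1 was 0.13 higher in null cells (SE 0.05, limma adjusted p = 0.16, and 0.08 higher without E7.5 null B) and Slc25a37 -0.10 (SE 0.05, limma adjusted p = 0.26). Within E9.5 Slc25a37 averaged 13.4, 12.4, 14.4 and 13.7 CPM over 20 types in null A to D, and 17.3, 15.7, 15.4 and 17.2 CPM in WT A to D. The groups did not overlap, which held for 1 of the 8 members and for 7.01% of all genes. The log2 difference was -0.22 (SE 0.06, limma adjusted p = 0.14), and a two-sided exact permutation test of the 8 libraries gave p = 0.0286, the smallest that its 70 arrangements allow, for 1 of 9 members tested in this way. That p restates the lack of overlap. The permutation also ignores that null and WT libraries were sorted from the same embryo pools. It treats the libraries of a genotype as independent, although by the study's count of embryos some of them share an embryo. For Hmox1 at E9.5 the difference was 0.15 (SE 0.08, limma adjusted p = 0.58, two-sided exact permutation p = 0.0571). The null-minus-WT difference of Slc25a37 at E9.5 minus that at E8.5 was -0.19 (SE 0.11, limma adjusted p = 1.00), and no member passed a test of a difference between stages. The averages were over 7 types at E7.5, 20 at E8.5 with Erythroid cells among them, and 20 at E9.5 with no blood type. These tests therefore set different types against each other.

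Hemoglobin UMIs moved with Slc25a37 in those cells. They summed to 9.84 to 69.5 CPM in the E9.5 null libraries and 265 to 1042 CPM in the WT libraries, averaged over the same 20 types, none of which is a blood type. Slc25a37 UMIs would number 0.00230 per hemoglobin UMI if they came with hemoglobin at the ratio of WT Erythroid cells. Less that amount, the null libraries lay at 12.3 to 14.2 CPM and the WT libraries at 14.6 to 15.4 CPM, and the difference went from -2.96 to -1.56 CPM with that fixed ratio assumed. At E8.5, over 19 types, null A and B held 1250.3 and 275 CPM of hemoglobin and 18.9 and 16.7 CPM of Slc25a37, and WT A and B held 1291 and 1184 CPM of hemoglobin and 16.6 and 19.3 CPM of Slc25a37. Slc25a37 therefore overlapped between the genotypes at E8.5. The part of hemoglobin-bearing RNA in the E9.5 difference was not tested.

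**Figure D5:**
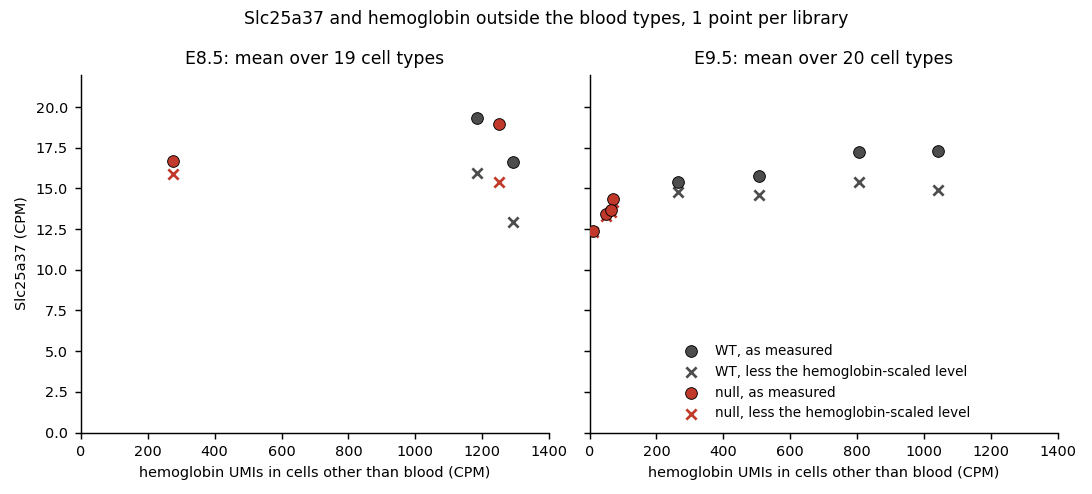
Slc25a37 against hemoglobin UMIs, both in CPM and averaged over cell types outside the blood, 1 point per library. At E9.5 the 4 null libraries have 9.84 to 69.5 CPM of hemoglobin and the lowest Slc25a37 levels, and crosses give Slc25a37 less the amount scaled from hemoglobin.

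The rest of the pathway was read from 4 lists, given by counts beside the median of all genes. In WT Erythroid cells between E8.5 and E9.5, heme synthesis and transport had 5 of 14 genes past an adjusted p of 0.05, all higher (list median 0.40, all genes 0.05), where 20.2% of all Erythroid genes passed in either direction. Alas2, the erythroid enzyme of the first step of heme synthesis, rose most, from 322 ± 47.4 to 609 ± 31.1 CPM (log2 fold change 1.11, SE 0.14, edgeR adjusted p = 3.5e-04). Other iron-handling genes had 3 of 17 past it, a share near that of all genes: Tfr2, the second transferrin receptor, rose from 2.48 ± 1.34 to 8.34 ± 0.626 CPM (1.89, SE 0.35, edgeR adjusted p = 0.0017) and 1 more rose, while Hmox2, the constitutive heme oxygenase, fell (-0.57, SE 0.16, 0.024). mRNAs with a known iron-responsive element had 5 of 9 past it, all higher: the members Slc40a1, Tfrc, Slc11a2 and Fth1, and Alas2. A list of NRF2, an activator, and BACH1, a heme-sensitive repressor of Hmox1 and the ferritins, with their partners and response genes, had 5 of 11 past it, all higher: the response genes Nqo1, Srxn1 and Gclc, the member Fth1, and Nfe2l2, which encodes NRF2 itself. With library sizes over all UMIs the counts of the 4 lists became 4 of 14, all higher, 3 higher and 4 lower of 17, 3 of 9, all higher, and 2 higher and 1 lower of 11, against 24.5% of all Erythroid genes in either direction. Alas2 and Tfr2 stayed higher and Hmox2 lower under both scalings. Tfr2 rested on 65 and 25 UMIs in the E8.5 libraries and 43, 10, 10 and 30 in E9.5 WT A to D. Nqo1 rested on 11 and 10 UMIs, and on 15, 7, 6 and 12, in the same order.

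Between genotypes 1 gene of these lists, Tmem14c, passed an adjusted p of 0.05. Tmem14c, a mitochondrial membrane protein needed for heme synthesis, was higher in null cells in all 7 types at E7.5 and past an adjusted p of 0.05 in each, and in 17 of 20 types at E8.5. At E9.5 it was higher in 36 of 37 types and past it in 0. Over all genes, 161 of 65112 tests passed at E7.5, 157 of 169046 at E8.5 and 878 of 324583 at E9.5. In E7.5 Blood progenitors Tmem14c was at 385 ± 16.96 CPM in null and 239.6 ± 33.6 CPM in WT cells (log2 fold change 0.73, SE 0.11, edgeR adjusted p = 0.0016). In E8.5 Erythroid cells it was at 2048 and 1716 CPM against 1098 and 936 CPM, with no overlap, as for 13.3% of the Erythroid genes tested in that direction (0.83, SE 0.22, edgeR adjusted p = 0.38). The 4 E9.5 WT libraries held 2151, 2019.9, 1265 and 1138 CPM of it in Erythroid cells. The other 3 lists had 0 genes past an adjusted p of 0.05 in null against WT cells at any stage.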

How the data were processed

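Single cells of 16 libraries were profiled with a 10x 3′ kit. The authors aligned reads with Cell Ranger to mm10 and deposited raw UMI counts per cell, together with a cell table of quality calls, doublet calls (scds), mitochondrial percent and cell types mapped from a reference atlas (batchelor). Groups follow the labels. Counts were summed per library and mapped type over cells that passed quality control and were no doublet, for sums over more than 15 cells. Predicted, mitochondrial, ribosomal, hemoglobin, Y-linked, Xist and tdTomato genes (8178 of 29453) were left out of the tests. Each type was tested with edgeR 4.0.16 (quasi-likelihood, TMM, filter on low counts) in R 4.3.3, with Benjamini-Hochberg adjustment within the type. A call needed an adjusted p under 0.05 and an absolute log2 fold change over 1. Fold changes are therefore relative to counts without hemoglobin, whereas CPM include it. Averages of log2(CPM + 5) over types, which understate changes of low genes, were fitted with limma 3.58.1, and DESeq2 1.42.0 was an alternative. The code was tested on simulated counts. Members, lists and comparisons were chosen with earlier results of these data known. Beyond the members, cell type markers and Stat3, the genes with values printed are those of the lists that passed the test, and the 3 most similar in pattern to Slc25a37, Tfrc or Slc40a1.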

Additional observations from a re-analysis of the deposited data

Results flagged for a closer look

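Dixon's ratio was examined in 27 groups of 4 libraries (each member at E9.5, averaged over cell types in the null and in the WT libraries, and in WT Erythroid cells), of which chance flags about 1 in 20. It picked out Steap3 in the E9.5 WT libraries, where the type-averaged log2(CPM + 5) was 2.48 in E9.5 WT D and 2.46 in each of the other libraries, and the gap of D to the nearest library was 0.865 of the range of the group, past the 95% limit for 4 values. Steap3 was too low outside Erythroid cells to be tested at E9.5.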

How the results depend on the processing

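No paired analysis was possible because the files do not tie a library to an embryo pool. Member calls between genotypes numbered 0, and 1 with no filter on low counts (Slc40a1 in E8.5 Erythroid cells). Leaving out 1 library at a time gave 0 to 1, the 1 being Hmox1 in Ectoderm (log2 fold change 1.33) without E7.5 null A. Member calls between WT stages numbered 2, and 1 with the DESeq2 test (Slc40a1 in Erythroid cells), 6 with no filter, 35 with no minimum of fold, and 2 to 3 when 1 library was left out. With library sizes over all UMIs they numbered 3, with Slc40a1 in Allantois added (log2 fold change 1.50, edgeR adjusted p = 0.049). The averaged fits and the Erythroid interaction gave 0 under every alternative run. Values that did not pass the test changed sign in E8.5 Erythroid cells between genotypes: Ireb2 was 0.0056 with no filter, 0.017 without null-sorted cells lacking a tdTomato UMI and 0.034 with library sizes over all UMIs, Hmox1 was 0.16 (from -0.31) without those null-sorted cells, Fth1 was 0.062 and Ftl1 0.027 in cells of the commonest mapped stage, and Fth1 was 0.031 and Ftl1 0.017 over all UMIs. Between WT stages Ftl1 was -0.028 in cells mapped to E9.25 and E9.5. When 1 library was left out the ranges were -0.22 to 0.19 for Fth1, -0.28 to 0.23 for Ftl1, -0.087 to 0.075 for Ireb2, -0.053 to 0.24 for Slc11a2 and -0.56 to 0.033 for Hmox1 between genotypes, -0.019 to 0.46 for Ftl1 between stages, and -0.014 to 0.041 for Tfrc averaged over types. The causes were not tested. Few UMIs limit Slc40a1 and Hmox1 in Erythroid cells, and 2 libraries a group limit E7.5 and E8.5.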
